A study of Mus musculus with 9 samples.

Results

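A set of 10 transcription factors and cofactors that drive or permit myelination by Schwann cells was followed in the sciatic nerve of mice in which Cnp-Cre deletes Tardbp. These genes, Sox10, Egr2, Pou3f1, Pou3f2, Nab1, Nab2, Zeb2, Yy1, Nfatc4 and Tcf7l2, were chosen by name and matched through their Ensembl identifiers, out of 36121 genes in the table. All 10 passed the filter on low values, which kept the 15014 genes whose average over the libraries reached 1. The study sequenced bulk RNA of sciatic nerves from C57BL6 mice aged 21 days, 3 per genotype, each library from 1 mouse: cKO mice carried Cnp-Cre and Tardbp-fl/fl, cHet mice carried Cnp-Cre and Tardbp-fl/+, and control mice carried Tardbp-fl/fl without Cre. The floxed Tardbp gene encodes the RNA-binding protein TDP-43, and Cnp-Cre, which is inserted in the Cnp locus, recombines it in Schwann cells and oligodendrocytes. Whole nerve also holds fibroblasts, vessels and other cells, so that values mix recombined cells with others. Every cHet and cKO mouse thus also carried a disrupted Cnp allele that the control mice lacked, and the cHet group shares the Cre with the cKO group. The males were cKO mouse ID-2748, cHet mouse ID-2750 and control mouse ID-2754, and the other mice were female. Groups were taken from the sample titles, while the genotype field named another genotype for cKO mice ID-2744 and ID-2747 and cHet mouse ID-2742.

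Schwann cells reach the myelinating state through a chain of transcription factors. Sox10 defines the lineage and, together with the POU proteins Pou3f1 (Oct6) and Pou3f2 (Brn2), turns on Egr2 (Krox20), which with Sox10 activates the genes for myelin proteins and lipids. The Nab proteins bind Egr2 as corepressors needed for myelination, Zeb2 represses genes that hold the cell immature, Yy1 acts on Egr2 expression, Nfatc4 carries calcineurin signals to Sox10 and Egr2 targets, and Tcf7l2 is the nuclear partner of beta-catenin in Wnt signalling.

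The main finding was that none of the 10 factors passed the test in any of the 3 genotype comparisons. Egr2 was the factor with the largest difference. Its value lay higher in all 3 cKO nerves than in every cHet and control nerve, with a mean of 163% relative to control and of 144% relative to cHet, without passing the correction for the 15014 genes tested. Tcf7l2 lay lower in all 3 cKO nerves than in every control nerve and also missed the correction. Sox10, which stands at the head of the chain, differed between genotypes by less than the spread between mice.

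The labels were first checked on Tardbp. Tardbp had 103, 94.2 and 103 normalized TPM in cKO nerves, 177, 179 and 186 in cHet nerves and 185, 194 and 217 in control nerves. All cKO nerves, including the 2 with another genotype field, were thus below all others, at 50.3% of the control mean, -0.98 on the log2 scale (limma, adjusted p = 0.00219, standard error 0.09). Between cHet and control the log2 fold change of Tardbp was -0.14 (standard error 0.09), and their libraries overlapped. Cnp averaged 617 ± 160.4 in the cKO, 764 ± 109.6 in the cHet and 1379 ± 283 in the control (SD, n = 3 each). In cHet mouse ID-2742, whose genotype field names no Cre, Cnp was 640, below every control nerve, of which the lowest had 1168. Schwann cell markers were high in every library, and the summed level of 10 of them ranged from 41491 to 53909 in the cKO, from 48045 to 70024 in the cHet and from 51144 to 71419 in the control. Other tissues differed between single nerves. Muscle markers summed to 8243 in cKO mouse ID-2748 and 15791 in control mouse ID-2743, neuron markers to 1659 in cKO mouse ID-2748, 1513 in cHet mouse ID-2742 and 3844 in control mouse ID-2746, and adipocyte markers to 2095 and 3021 in control mice ID-2743 and ID-2754. Of the 7 oligodendrocyte markers the sum was 23.7 to 41.0 in the cKO, 14.5 to 22.1 in the cHet and 12.5 to 28.1 in 2 control nerves but 150.2 in control mouse ID-2754, mostly from Mobp, and Olig2 lay below the minimum mean of 1 in every library. The part of these mixtures in the values below was not tested. In bulk nerve, fewer cells of a type and less RNA per cell cannot be told apart.

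Levels differed widely between the factors and can be set side by side because TPM are scaled by transcript length. Sox10 was the most abundant, at a mean of 321 normalized TPM over the 9 libraries (SD 90.9), above 97.4% of the tested genes. Zeb2 followed at 112 (SD 16.0), Nab2 at 81.1 (SD 14.7), Nab1 at 58.8 (SD 4.17), Egr2 at 39.9 (SD 10.6), Pou3f1 at 29.9 (SD 7.26) and Yy1 at 28.9 (SD 2.09). Tcf7l2 at 12.6 (SD 2.23), Nfatc4 at 7.63 (SD 1.44) and Pou3f2 at 3.22 (SD 0.709) made up the low end, and Pou3f2 exceeded only 17.3% of the tested genes. The ranges over the 9 libraries did not overlap between Sox10 and Zeb2, between Yy1 and Tcf7l2, or between Nfatc4 and Pou3f2. The other neighbours in this order overlapped in range. Within libraries Nab2 was above Nab1 and Tcf7l2 above Nfatc4 in 9 of 9, Nab1 above Egr2 and Egr2 above Pou3f1 in 8 of 9, and Zeb2 above Nab2 in 7 of 9. Pou3f1 exceeded Yy1 in 5 of 9 libraries, so that these were not ordered beyond their spread. Relative to their means, Nab1 and Yy1 varied least between the 9 libraries, with coefficients of variation of 7.09% and 7.21%, and Sox10, Egr2 and Pou3f1 varied most, with 28.3%, 26.7% and 24.3%.

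**Figure D1:**
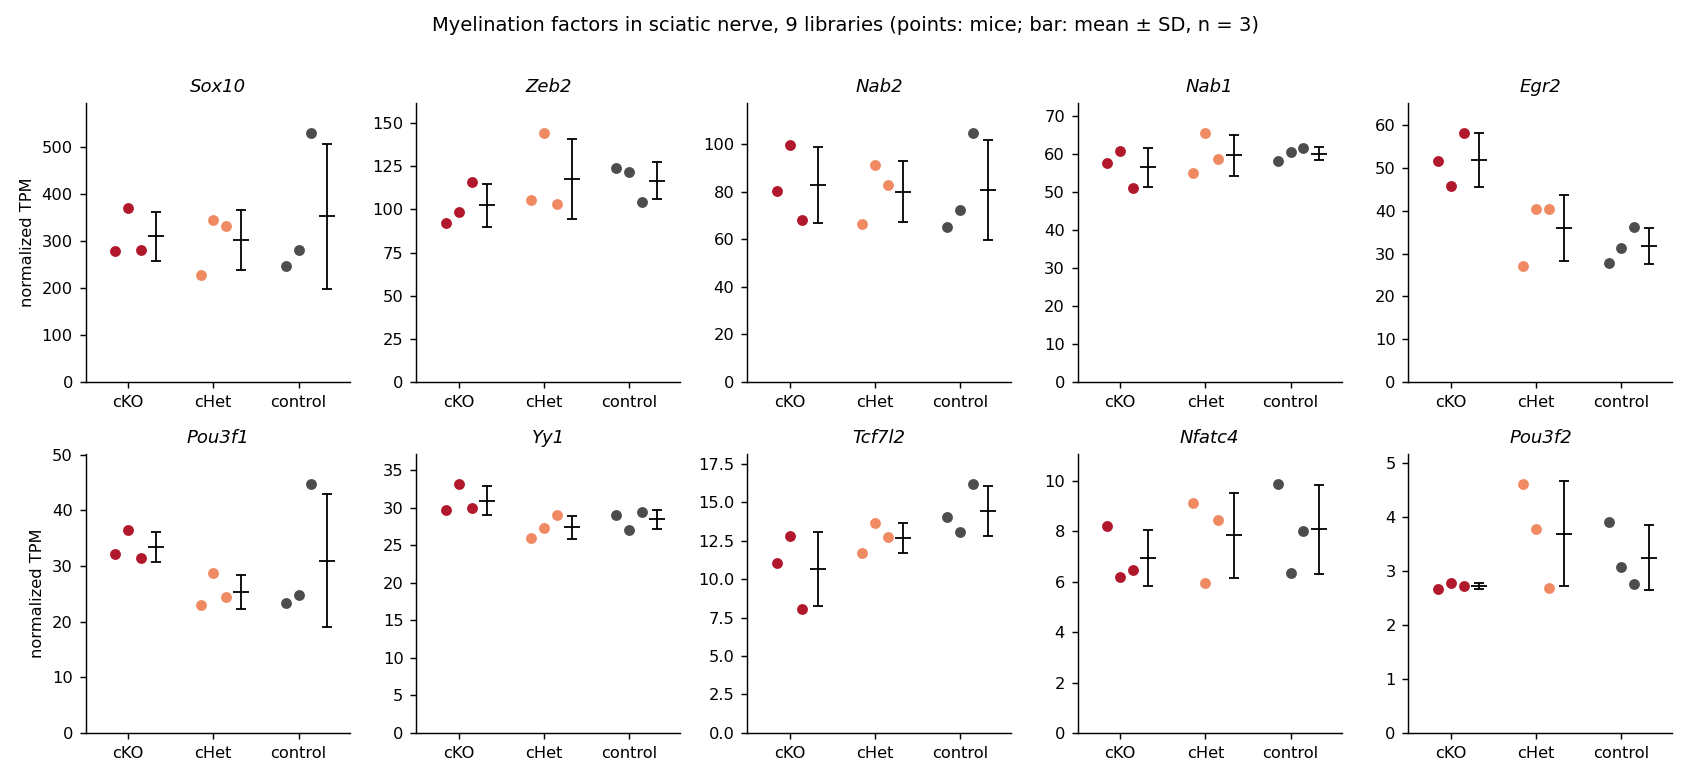
Level of each factor in normalized TPM (vertical axes, each starting at 0) in cKO, cHet and control nerves; points are mice, the black bar is the group mean with its SD (n = 3), and panels run from the most to the least abundant factor. Only Egr2 and Yy1 have every cKO point above every control and cHet point, and Tcf7l2 has every cKO point below every control point; the high control points of Sox10, Nab2 and Pou3f1 are all mouse ID-2754.

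Against control, cKO nerves showed 0 of 10 factors past an adjusted p of 0.05, where 1.57% of all tested genes passed (235 of 15014, limma). At an unadjusted p under 0.05 stood 2 factors, Egr2 and Tcf7l2, against 12.9% of all tested genes. In 3 factors the groups did not overlap, Egr2 and Yy1 with higher and Tcf7l2 with lower cKO values, against 17.4% of all tested genes. The median log2 fold change of the 10 factors was -0.10, beside -0.02 for all tested genes, and the single values ran from -0.44 for Tcf7l2 to 0.70 for Egr2.

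Between cKO and cHet nerves, which share Cnp-Cre and differ in the second Tardbp allele, again 0 of 10 factors passed the adjusted threshold, where 1.71% of all tested genes did. Egr2 alone had an unadjusted p under 0.05, against 14.6% of all tested genes. The groups did not overlap for 3 factors, Egr2, Pou3f1 and Yy1, all with higher cKO values, against 24.3% of all tested genes. The median log2 fold change was -0.02 for the 10 factors and 0.02 for all tested genes.

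For cHet against control nerves, 0 of 10 factors passed at the adjusted threshold (all tested genes: 0%) and 0 at an unadjusted p under 0.05 (all tested genes: 2.72%), and no factor had groups that did not overlap (all tested genes: 7.1%). The log2 fold changes of the factors lay between -0.22 for Pou3f1 and 0.16 for Egr2. Both comparisons against control use the same 3 control nerves. Counts of factors were thus close to those of all genes in each comparison, and what the data bound is the size of a change: the 95% confidence interval of the log2 fold change of cKO against control was narrowest for Yy1, from -0.08 to 0.31, and widest for Sox10, from -0.78 to 0.55.

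**Figure D2:**
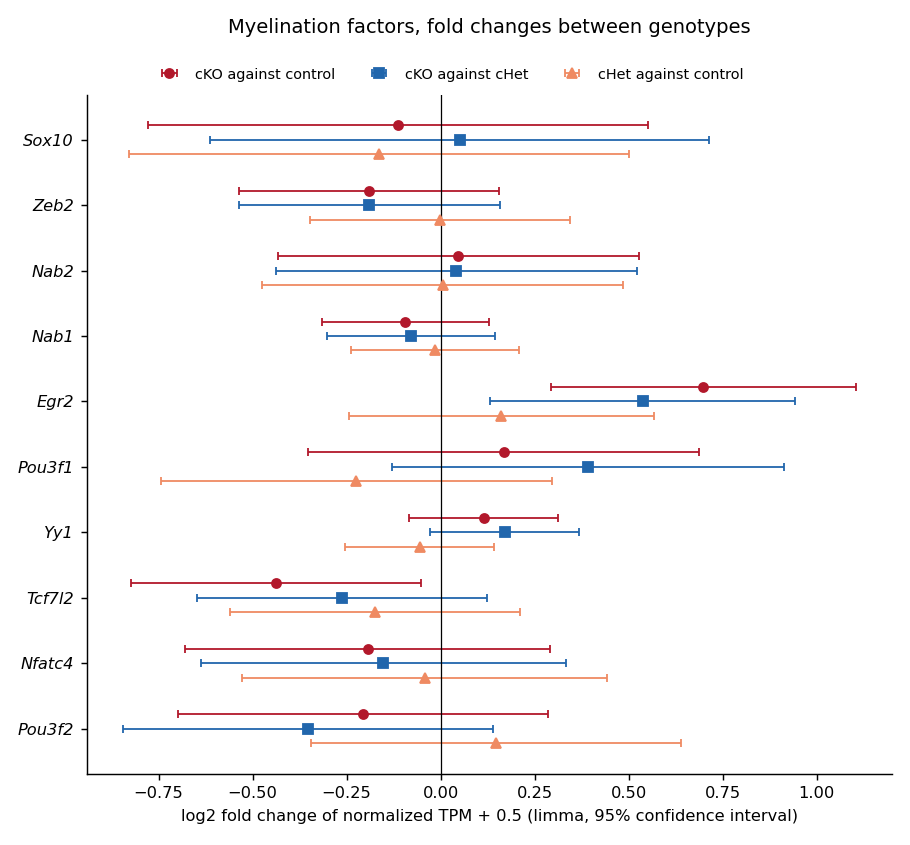
log2 fold change (horizontal axis, on normalized TPM + 0.5) with its 95% confidence interval from limma for cKO against control (circles), cKO against cHet (squares) and cHet against control (triangles), with factors from the most to the least abundant. The intervals of Egr2 in both cKO comparisons and of Tcf7l2 in cKO against control leave out 0 before correction for the 15014 genes tested.

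Sox10, the SoxE factor without which no Schwann cell forms, is encoded on chr15:79154908-79165240 (GRCm38, minus strand, GENCODE M21). It had 279, 370.1 and 281 normalized TPM in cKO nerves, 228, 344 and 333 in cHet nerves and 247, 280.5 and 530.3 in control nerves. The 3 genotypes overlapped, and the highest value of all came from control mouse ID-2754. For Sox10 the log2 fold change was -0.11 for cKO against control (standard error 0.29, 95% interval -0.78 to 0.55, adjusted p = 0.929 from limma) and 0.05 for cKO against cHet. Without control mouse ID-2754 the first of these turned to 0.22, still far from the threshold. Of the other SoxE genes, Sox8 averaged 20.8 ± 3.01 in the cKO, 23.8 ± 3.12 in the cHet and 24.6 ± 4.33 in the control, and Sox9 averaged 9.17 ± 2.47 in the cKO, 9.66 ± 2.12 in the cHet and 8.77 ± 1.98 in the control (SD, n = 3 each). None of the 3 SoxE genes passed the test in any comparison.

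Egr2, the zinc finger factor that runs the myelin program, lies on chr10:67535475-67542188 (GRCm38, plus strand). It had 51.8, 45.7 and 58.2 normalized TPM in cKO nerves, 27.1, 40.5 and 40.4 in cHet nerves and 27.8, 31.3 and 36.3 in control nerves. The lowest cKO nerve was above the highest nerve of both other groups. The group means were 51.9 ± 6.24 in the cKO, 36.0 ± 7.71 in the cHet and 31.8 ± 4.28 in the control (SD, n = 3 each). The log2 fold change was 0.70 for cKO against control (standard error 0.18, 95% interval 0.29 to 1.10, unadjusted p = 0.00383, adjusted p = 0.115 from limma) and 0.54 for cKO against cHet (standard error 0.18, unadjusted p = 0.0153, adjusted p = 0.207 from limma). Tested alone, both comparisons gave p = 0.1 by a two-sided exact permutation test, the smallest p that 3 mice against 3 can give. Between cHet and control the log2 fold change was 0.16 and the groups overlapped. Over the alternatives the log2 fold change of cKO against control ranged from 0.52 to 0.87 and its adjusted p from 0.0564 to 0.466. For cKO against cHet it ranged from 0.26, without the 3 nerves high in neuron markers, to 0.63, and it was 0.35 without cHet mouse ID-2742. Against control it was 0.87 without the 3 libraries whose genotype field differs, which leaves 1 cKO nerve, assumed to vary like the others (adjusted p = 0.466 from limma).

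Other zinc finger genes of the Egr family lay in the same direction. Egr1, an immediate early gene, had 6.88, 7.14 and 6.77 normalized TPM in cKO nerves, 6.17, 4.05 and 3.18 in cHet nerves and 4.96, 4.53 and 4.0 in control nerves, so that the cKO nerves were above all others. Its log2 fold change against control was 0.58 (standard error 0.21, adjusted p = 0.290 from limma). Egr3 had 12.3, 10.9 and 12.0 in cKO nerves, 7.77, 11.2 and 5.20 in cHet nerves and 5.27, 7.29 and 6.04 in control nerves. The cKO nerves of Egr3 were above all control nerves and overlapped with the cHet, with a log2 fold change against control of 0.88 (standard error 0.24, adjusted p = 0.154 from limma). All 3 Egr genes tested thus had unadjusted p under 0.05 in both cKO comparisons, as had 12.9% of all tested genes against control and 14.6% against cHet, and 0 of 3 passed the adjusted threshold. Egr4 lay below the minimum mean in every library.

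The start region of Egr2 is shown because Egr2 had the largest difference and its promoter holds a match to the site of the POU factors. RefSeq (GRCm38.p6) gave promoters of 250 bases before and 50 after the start for 8 of the 10 factors, in 16 entries, and not for Sox10 and Pou3f1. The entry at chr10:67537619-67537918 (plus strand) is the first of 3 Egr2 entries that hold both kinds of match. Its capitals mark the octamer ATGCAAAT, the core site of POU factors such as Pou3f1, 127 bases before the start of that entry. A CArG box, the site of serum response factor, follows 72 bases before the same start. That start lies inside the GENCODE M21 span of Egr2 given above.
Egr2 promoter: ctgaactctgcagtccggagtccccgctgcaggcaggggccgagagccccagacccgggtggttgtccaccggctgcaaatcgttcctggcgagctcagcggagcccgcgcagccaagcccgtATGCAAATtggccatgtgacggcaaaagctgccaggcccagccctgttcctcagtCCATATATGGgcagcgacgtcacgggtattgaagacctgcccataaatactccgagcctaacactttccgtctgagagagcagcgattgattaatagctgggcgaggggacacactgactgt
Both strands were searched. The octamer was found in 3 of the 5 Egr2 entries, which overlap each other, in no entry of the other 7 factors, and in 1.74% of all 32851 promoter entries. The CArG box was found in 4 of the 5 Egr2 entries, in none of the other factors, and in 1.63% of all entries. A match is a run of letters and not a measured binding site.

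The Nab corepressors Nab1 and Nab2 bind Egr proteins and lower their activity. Nab1 (chr1:52457294-52500679, minus strand) had 57.6, 60.9 and 51.0 normalized TPM in cKO nerves, 54.9, 65.5 and 58.6 in cHet nerves and 58.2, 60.7 and 61.5 in control nerves. By its coefficient of variation it was the steadiest of the 10 factors. Its log2 fold change was -0.09 for cKO against control (standard error 0.10, 95% interval -0.32 to 0.13, adjusted p = 0.777 from limma). Nab2 (chr10:127660918-127668568, minus strand) had 80.1, 99.7 and 68.1 in cKO nerves, 66.3, 91.1 and 82.6 in cHet nerves and 65.1, 72.4 and 105 in control nerves, which overlapped, and differed from control by 0.05 on the log2 scale (limma, adjusted p = 0.963, standard error 0.21). Over the alternatives this value of Nab2 ran from -0.21 to 0.25 and changed sign in 6. The span of Nab2 overlaps 3 annotated genes on the other strand, among them Stat6 and Nemp1. Whether their exons overlap was not examined. No source used here states whether quantification used strand, and the part of their reads in the Nab2 values was not tested.

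The Nab1 promoter is shown because it was the single one among the factors with the Egr site GCGTGGGCG, the consensus that Egr zinc fingers read. The site occurred in 0.612% of all promoter entries. In Nab1 it occurred 2 times, once on each strand, 141 and 109 bases before the start of the RefSeq entry. Both sites lie inside the GENCODE M21 span of Nab1 given above, which begins farther upstream. The stretch below is chr1:52500539-52500599 (GRCm38.p6, RefSeq, written along the minus strand), with both sites in capitals.
Nab1 promoter: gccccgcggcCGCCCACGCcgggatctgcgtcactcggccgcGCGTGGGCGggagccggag
No match was found in the single entry of Nab2. Of the other motifs searched on both strands, the Zeb site CACCTG was in none of the factors' entries (20.2% of all entries), the TCF site ATCAAAG in that of Pou3f2 (3.73%) and the Sox site ACAAAG in 1 entry each of Zeb2 and Tcf7l2 (18.7%).

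Of the POU factors, Pou3f1 was far more abundant than Pou3f2 in every library. Pou3f1, the POU factor of promyelinating cells, is a gene of 1 exon on chr4:124656807-124660655 (plus strand) that overlaps an annotated antisense gene. It had 32.3, 36.5 and 31.4 normalized TPM in cKO nerves, 23.0, 28.8 and 24.4 in cHet nerves and 23.3, 24.9 and 44.8 in control nerves. Every cKO nerve was above every cHet nerve, while control mouse ID-2754 was the highest of all 9. In Pou3f1 the log2 fold change was 0.39 for cKO against cHet (standard error 0.23, adjusted p = 0.486 from limma) and 0.17 for cKO against control (standard error 0.23, adjusted p = 0.842 from limma). Without control mouse ID-2754 the log2 fold change against control was 0.46 (adjusted p = 0.184 from limma). Pou3f2, a second POU gene of 1 exon on chr4:22482780-22488366 (minus strand) with overlapping roles in Schwann cells, had 2.66, 2.78 and 2.73 in cKO nerves, 4.61, 3.79 and 2.68 in cHet nerves and 3.92, 3.07 and 2.76 in control nerves. The cKO values of Pou3f2 were the closest together, and its log2 fold change was -0.21 against control (standard error 0.22) and -0.35 against cHet (standard error 0.22). The nerves with high neuron markers, cKO mouse ID-2748, cHet mouse ID-2742 and control mouse ID-2746, had Pou3f2 values of 2.73, 4.61 and 3.07; whether neuronal RNA adds to Pou3f2 was not tested. Pou3f3 and Pou3f4 of the same class lay below the minimum mean.

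Among the repressor and cofactor genes, Zeb2 (chr2:44983632-45117395, minus strand), the zinc finger homeobox repressor of immaturity genes, had 92.3, 98.6 and 116 normalized TPM in cKO nerves, 105, 144 and 103 in cHet nerves and 124, 122 and 104 in control nerves. The groups overlapped, with a log2 fold change of -0.19 against both control and cHet (standard error 0.15 in each; adjusted p = 0.681 and 0.633 from limma). For Zeb2 the value against cHet was -0.03 without cHet mouse ID-2745, and that against control was -0.00 without the 3 libraries whose genotype field differs. Its paralog Zeb1 averaged 37.8 ± 11.6 in the cKO, 38.7 ± 7.49 in the cHet and 33 ± 3.38 in the control (SD, n = 3 each). Yy1 (chr12:108792973-108820148, plus strand), a zinc finger factor of all cells, had 29.6, 33.1 and 29.9 in cKO nerves, 25.9, 27.3 and 29.0 in cHet nerves and 29.0, 27.0 and 29.4 in control nerves. The cKO nerves were above all others by a small margin, though scaling the libraries to their Schwann cell markers turned the log2 fold change against control to -0.00. As deposited it was 0.11 against control (standard error 0.09, adjusted p = 0.666 from limma) and 0.17 against cHet (standard error 0.09, adjusted p = 0.419 from limma).

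Nfatc4 and Tcf7l2 end 2 signalling pathways. Nfatc4 (chr14:55823144-55833943, plus strand), which calcineurin sends to the nucleus, had 8.23, 6.17 and 6.45 normalized TPM in cKO nerves, 9.13, 5.94 and 8.46 in cHet nerves and 9.88, 6.36 and 8.02 in control nerves. All 3 genotypes overlapped, and the log2 fold change was -0.19 for cKO against control (standard error 0.21, adjusted p = 0.791 from limma). For Nfatc4 this value was -0.35 without control mouse ID-2746 and -0.05 without control mouse ID-2743. It was 0.11 when the 2 control nerves with high adipocyte markers were left out, which leaves only control mouse ID-2746. Tcf7l2 (chr19:55741820-55933654, plus strand), which recruits beta-catenin to Wnt targets, had 11.0, 12.8 and 8.09 in cKO nerves, 11.7, 13.6 and 12.7 in cHet nerves and 14.0, 13 and 16.2 in control nerves. The highest cKO nerve was just below the lowest control nerve, and the cHet nerves overlapped with both groups. The log2 fold change of Tcf7l2 was -0.44 for cKO against control (standard error 0.17, 95% interval -0.82 to -0.05, unadjusted p = 0.0307, adjusted p = 0.318 from limma) and -0.26 for cKO against cHet (standard error 0.17, adjusted p = 0.541 from limma). Over the alternatives the first of these lay between -0.79, without the 3 libraries whose genotype field differs, and -0.26, without cKO mouse ID-2748. Leaving out the same libraries gave the lowest and highest values of Tcf7l2 against cHet, -0.67 and -0.09. Of the other TCF and LEF genes, Tcf7, Tcf7l1 and Lef1, none passed in any comparison.

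Ratios of factors within a library do not depend on the scaling between libraries. The ratio of Egr2 to Sox10 was 0.185, 0.124 and 0.207 in cKO nerves, 0.119, 0.118 and 0.121 in cHet nerves and 0.113, 0.112 and 0.0685 in control nerves. No 2 groups overlapped, the cKO above the cHet and the cHet above the control, although cKO mouse ID-2747 exceeded the highest cHet nerve by little. The log2 ratio was 0.82 higher in the cKO than in the control and 0.49 higher than in the cHet (two-sided exact permutation test, p = 0.1 each, the smallest possible), and leaving out control mouse ID-2754 gave 0.58 against control. The log2 ratio was 0.33 higher in the cHet than in the control, and 0.09 without control mouse ID-2754, so that most of this difference rested on 1 nerve.

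The ratio of Nab1 to Egr2 was 1.11, 1.33 and 0.876 in cKO nerves, 2.02, 1.62 and 1.45 in cHet nerves and 2.10, 1.94 and 1.69 in control nerves. The RNA values of Nab1 and Egr2 were thus similar in cKO nerves. The ratio lay below that of every cHet and control nerve, where the Nab1 value was the higher. These are RNA values of whole nerve, and protein was not measured here. The log2 difference was -0.80 against control and -0.62 against cHet (two-sided exact permutation test, p = 0.1 each). The ratio of Nab2 to Egr2 was 1.55, 2.18 and 1.17 in cKO nerves, 2.44, 2.25 and 2.04 in cHet nerves and 2.34, 2.31 and 2.88 in control nerves, below all control nerves and overlapping with the cHet. The ratio of Nab2 to Nab1 overlapped in all comparisons, with means of 1.46 ± 0.160 in the cKO, 1.34 ± 0.112 in the cHet and 1.34 ± 0.317 in the control (SD, n = 3 each). The ratio of Pou3f1 to Pou3f2 was 12.1, 13.1 and 11.5 in cKO nerves, 4.98, 7.61 and 9.09 in cHet nerves and 5.94, 8.10 and 16.2 in control nerves, separate between cKO and cHet only. Pou3f1 to Egr2 overlapped throughout. In all, 18 ratio comparisons were made. Ratios that hold Egr2 reuse its values, so their separation is not independent of the Egr2 difference given above. How often ratios of other genes separate between these groups was not computed.

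**Figure D3:**
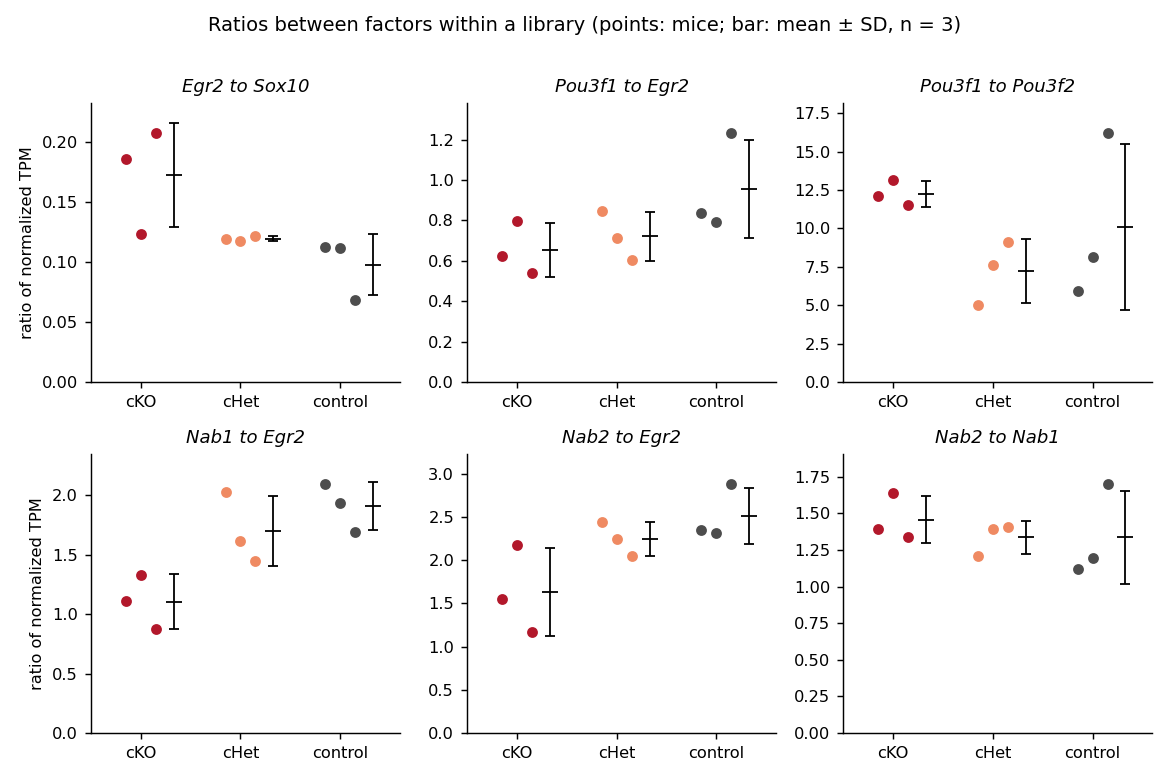
Ratio of 2 factors within each library (vertical axes, ratio of normalized TPM, each starting at 0) in cKO, cHet and control nerves; points are mice and the black bar is the mean with its SD (n = 3). The ratio of Egr2 to Sox10 is 0.124 to 0.207 in the cKO and at most 0.121 elsewhere, and the ratio of Nab1 to Egr2 is at most 1.33 in the cKO and at least 1.45 elsewhere.

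Downstream of the factors, 14 myelin genes activated by Sox10 and Egr2 were followed. In limma none of them passed in cKO against control or cHet against control. At an unadjusted p under 0.05 stood 2 in cKO against control, beside 12.9% of all tested genes, and 0 in cHet against control. In cKO against cHet 1 passed the adjusted threshold, with lower cKO values, beside 1.71% of all tested genes. The median log2 fold change of the 14 was -0.16 for cKO against control and -0.22 for cKO against cHet. The gene that passed was Ugt8a, which makes the galactolipids of myelin. It had 649, 661 and 545 normalized TPM in cKO nerves, 906, 1156 and 1086 in cHet nerves and 961, 898 and 833 in control nerves. Against cHet it fell by 0.76 on the log2 scale (standard error 0.13, adjusted p = 0.0303 from limma). The call held in 10 of 24 alternatives; of the 9 that leave out 1 nerve it held in 3, without cHet mouse ID-2742 or control mouse ID-2743 or ID-2754, and the adjusted p from limma otherwise reached 0.138. The cKO and control groups did not overlap for 4 of the 14, with Gjb1 higher and Drp2, Mbp and Ugt8a lower in the cKO, against 17.4% of all tested genes. The cKO and cHet groups did not overlap for Gjb1, higher in the cKO, and for Mbp and Ugt8a, lower in the cKO, against 24.3% of all tested genes. Mbp, which encodes myelin basic protein, had 16615, 21488 and 15387 normalized TPM in cKO nerves, 22077, 31048 and 24886 in cHet nerves and 23178, 25577 and 26727 in control nerves. Its log2 fold change was -0.51 against control and -0.54 against cHet (adjusted p = 0.516 and 0.428 from limma). Gjb1, which like Mbp and Drp2 was named after its values were seen, encodes connexin 32 and lay in the other direction. It had 187, 222 and 181 in cKO nerves, 113, 147 and 139.6 in cHet nerves and 116, 117 and 149.9 in control nerves, above both other groups as Egr2 was, at 0.63 on the log2 scale against control and 0.56 against cHet (adjusted p = 0.0873 and 0.114 from limma).

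Of 14 regulators of the immature Schwann cell or genes that myelination represses, 13 were tested and 0 passed limma in any comparison. At an unadjusted p under 0.05 stood 3 for cKO against control, Egr1, Egr3 and Ednrb, and 4 for cKO against cHet, Egr1, Egr3, Hes1 and Id2. Here and for the lists below these counts stand beside 12.9% of all tested genes for cKO against control and 14.6% for cKO against cHet. Their median log2 fold change was -0.09 for cKO against control and 0.13 for cKO against cHet. The most abundant were Ngfr, the low-affinity neurotrophin receptor, Notch1, Id2 and Jun. Jun, which antagonizes Egr2, had 26.9, 31.6 and 33.7 normalized TPM in cKO nerves, 22, 25.1 and 25.7 in cHet nerves and 21.0, 26.9 and 31.7 in control nerves, overlapping between cKO and control, with all cKO nerves above all cHet nerves. Id2, an inhibitor of helix-loop-helix factors, averaged 35.7 ± 3.19 in the cKO, 26.9 ± 5.34 in the cHet and 27.8 ± 4.89 in the control (SD, n = 3 each), with an adjusted p of 0.432 against control from limma. Its lowest cKO nerve, at 32.9, was just above the highest control and cHet nerves, at 32.4 each. Egr1, Egr3 and Id2 lay higher in all cKO nerves than in all control nerves and none lower, against 17.4% of all tested genes not overlapping. Relative to cHet, Egr1, Hes1, Id2 and Jun lay higher and Ednrb lower, against 24.3% of all tested genes. Of 18 chromatin cofactors, which include the histone deacetylases and the NuRD and SWI/SNF remodellers that work with these factors, 0 passed limma in any comparison and 2 had an unadjusted p under 0.05 in both cKO comparisons, with medians of -0.05 for cKO against control and -0.12 for cKO against cHet. Those 2, named after their values were seen, were Smarca2 and Smarca4, the ATPases of SWI/SNF complexes. Both lay lower in all cKO nerves than in all others, at 65.0% and 81.0% of the control mean (adjusted p = 0.0737 and 0.349 from limma). With Crebbp, 3 of the 18 lay lower in all cKO nerves than in all control nerves, against 17.4% of all tested genes not overlapping. Relative to cHet, 5 of the 18 did so, against 24.3% of all tested genes. Chd4, Ncor1, Mta2 and Hdac2, the 4 most abundant, had log2 fold changes of 0.10, -0.02, -0.01 and 0.09 for cKO against control.

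Of 13 calcineurin and NFAT genes other than Nfatc4, 0 passed limma in any comparison and 2 for cKO against control and 4 for cKO against cHet had an unadjusted p under 0.05, with a median of -0.04 for cKO against control. Ppp3ca, the most abundant catalytic subunit, averaged 85.9 ± 14.5 in the cKO, 75.2 ± 8.30 in the cHet and 85.1 ± 25.6 in the control (SD, n = 3 each). Rcan1, a calcineurin regulator and NFAT target, had 38.5, 44.7 and 42.0 normalized TPM in cKO nerves, 35.6, 30.4 and 34.6 in cHet nerves and 32.1, 38.1 and 37.1 in control nerves, with cKO nerves above the others by 0.22 on the log2 scale against control (adjusted p = 0.438 from limma). Of the 13, 2 lay higher and 2 lower in all cKO nerves than in all control nerves, against 17.4% of all tested genes not overlapping. Relative to cHet, 4 lay higher and 4 lower, against 24.3% of all tested genes. Of 15 Wnt genes around Tcf7l2, 0 passed limma in any comparison and 2 for cKO against control and 3 for cKO against cHet had an unadjusted p under 0.05, with medians of -0.04 against control and -0.14 against cHet. Ctnnb1, which encodes beta-catenin, was the most abundant and averaged 349.8 ± 44.1 in the cKO, 309 ± 25.3 in the cHet and 307 ± 39.0 in the control (SD, n = 3 each). Those under an unadjusted p of 0.05 were Apc and Axin2 against control and Apc, Lgr5 and Lrp6 against cHet. Axin2 and Lrp6 lay lower in all cKO nerves than in all control nerves, against 17.4% of all tested genes not overlapping. Relative to cHet, Apc, Lgr5 and Lrp6 did so, against 24.3% of all tested genes. None of the 15 lay higher in all cKO nerves in either comparison.

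Of the signals that feed the chain from the axon and from cAMP, 1 of 12 genes passed, in cKO against cHet only. This was Adgrg6 (Gpr126), the adhesion receptor whose cAMP signal starts Pou3f1 and Egr2 expression in zebrafish and mouse. In that comparison 1.71% of all tested genes passed. Adgrg6 had 20.5, 19.1 and 18.8 normalized TPM in cKO nerves, 29.5, 31.3 and 30.6 in cHet nerves and 24.9, 23.6 and 24.9 in control nerves. The 3 genotypes were separate, with the control between the cKO and the cHet. Its log2 fold change was -0.63 for cKO against cHet (standard error 0.08, adjusted p = 0.00995 from limma), -0.33 for cKO against control (adjusted p = 0.0982 from limma) and 0.31 for cHet against control. The call against cHet held in 17 of 24 alternatives, 6 of them among the 9 that leave out 1 nerve. It was lost without cKO mouse ID-2748 and cHet mice ID-2745 and ID-2750, where the log2 fold change was -0.61, -0.62 and -0.63 and the adjusted p from limma 0.0550, 0.0600 and 0.0554.

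Of 6 Hippo genes, whose products act with Sox10 at myelin genes, 1 passed, again in cKO against cHet, beside 1.71% of all tested genes. Tead2, a DNA-binding partner of Yap1, had 38.5, 43.7 and 40.2 normalized TPM in cKO nerves, 70.0, 71.5 and 63.4 in cHet nerves and 45.7, 42.8 and 63.1 in control nerves. For cKO against control its log2 fold change was -0.29 and the groups overlapped. For cHet against control it was 0.45, with every cHet nerve above every control nerve by a small margin. Against cHet, cKO values were lower by 0.74 on the log2 scale (standard error 0.14, adjusted p = 0.0461 from limma). The call held in 9 of 24 alternatives; of the 9 that leave out 1 nerve it held in 2, without control mouse ID-2746 or ID-2754, and the adjusted p from limma otherwise reached 0.193. Without the 3 libraries whose genotype field differs, no gene of the table passed in any comparison, Adgrg6, Ugt8a and Tead2 included, with log2 fold changes for cKO against cHet of -0.71, -1.04 and -0.74.

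**Figure D4:**
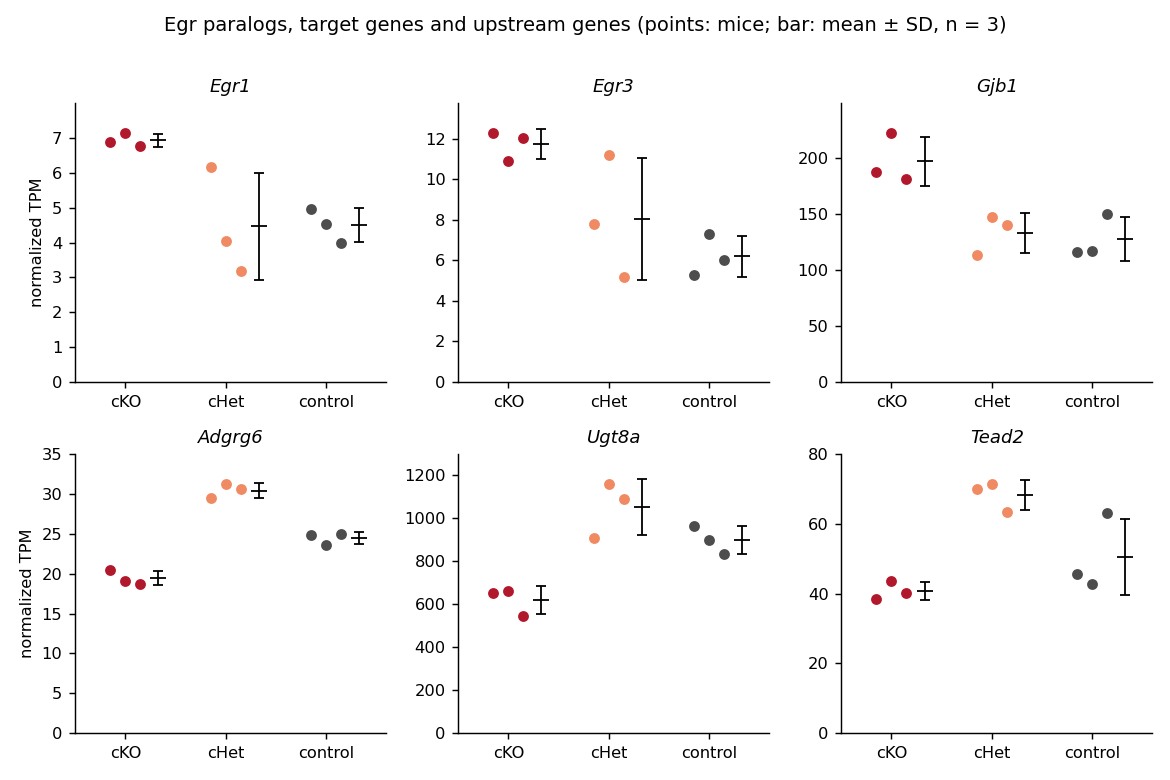
Level in normalized TPM (vertical axes, each starting at 0) of Egr1, Egr3, Gjb1, Adgrg6, Ugt8a and Tead2 in cKO, cHet and control nerves; points are mice and the black bar is the mean with its SD (n = 3). Egr1 and Gjb1 have all cKO points above all others, while Adgrg6 and Ugt8a have all cKO points below all others.

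Genes with the most similar pattern to each factor over the 9 libraries were sought among 8773 named genes with a mean of at least 10, by Pearson's r of the log2 values, as a description in which libraries of different makeup weigh on every gene. Sox10 was closest to Nde1, Hip1r and Carns1 (r 0.984, 0.983 and 0.968). Egr2 was closest to Tm9sf1, Ucp2 and Plekha1 (r 0.975, 0.974 and 0.963). Nab2 was closest to Sh3tc2, a Schwann cell gene mutated in demyelinating neuropathy, followed by Med8 and Pfas (r 0.987, 0.985 and 0.979), while Nab1 was closest to Chst2, Hdhd2 and Mapkapk5 (r 0.931, 0.926 and 0.914). Pou3f1 ran with Rhbdf1, Mxra7 and Tapbp (r 0.974, 0.962 and 0.957), and Pou3f2 with Sox4, Pou6f1 and Hmgb2 (r 0.921, 0.916 and 0.914). Zeb2 ran with Ulk2, Pfkfb4 and Gbp2 (r 0.910, 0.891 and 0.880), Yy1 with Lta4h, Pla2g12a and Cebpg (r 0.978, 0.958 and 0.938) and Tcf7l2 with Chkb, Hsd17b11 and Foxo4 (r 0.939, 0.926 and 0.924). Nfatc4 ran with Gas1, Postn and Eln (r 0.980, 0.959 and 0.959), of which Postn and Eln encode matrix proteins of connective tissue. The 8 fibroblast markers summed to 8723, 4667 and 6550.2 in cKO nerves, to 7292, 7184 and 6972 in cHet nerves and to 8605, 5909 and 5679 in control nerves, and the part of fibroblasts in the Nfatc4 values was not tested.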

How the data were processed

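RNA of 9 sciatic nerves was sequenced and quantified by the authors, who deposited a signal called normalized TPM for every gene; kallisto 0.44.0 with sleuth 0.30.0 on GRCm38 are credited to the submitters' processing notes. The values sum to 934932 to 1158094 per library, so they are TPM scaled further between libraries; TPM keep no depth, so counting error is unknown. For this table the sources used here give neither strandedness of counting, annotation release nor scaling. Symbols were found for 35471 genes.

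The test scale was log2(value + 0.5), on which fold changes of low genes are understated. Genes with a mean of at least 1 were fitted over all 9 libraries with limma 3.58.1 in R 4.3.3 (mean-variance trend, Benjamini-Hochberg adjustment, threshold 0.05), tested on simulated data. Single factors and ratios were also tested by two-sided exact permutation. The methods describe sets of the genotypes from shared or close litters, but the labels do not say which mice formed a set; p-values measure the spread between these mice. Alternatives were pseudocounts, filters, scalings, model settings and left-out libraries. The factors and lists were chosen with earlier results of these data known. All factors are named; of each related list, genes past the threshold or up to 4 of the most abundant; family members; and the 3 genes most like each factor. Gjb1, Mbp, Drp2, Crebbp, Smarca2, Smarca4, Hes1, Ednrb, Apc, Axin2, Lgr5 and Lrp6 were added after their values were seen. Loci are from GENCODE M21.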

Additional observations from a re-analysis of the deposited data

How the results depend on the processing

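The count of factors past the threshold was 0 in each of the 3 comparisons under all 24 alternatives, 1 of which, a scaling of every library to its Schwann cell markers, was chosen after seeing the data. Of 30 log2 fold changes of the factors, 14 kept their sign under every alternative and 16 changed it in at least 1 without being called. Those of Egr2 and Tcf7l2 in cKO against control and cKO against cHet kept their sign. Pou3f2 was not tested in the alternative that required a mean of at least 5, so its values had 23 alternatives. The lowest adjusted p of any factor was 0.0564, for Egr2 in cKO against control without cHet mouse ID-2742 (limma). Tardbp in cKO against control lost its call without the 3 libraries whose genotype field differs (log2 fold change -0.94), without the libraries high in neuron markers (-1.02) and without those high in adipocyte markers (-0.95); these leave 1 or 2 nerves in a group. Leaving out 1 nerve at a time kept the Tardbp call, between -1.03 and -0.92. The median log2 fold change of all tested genes moved to -0.14 in cKO against control under Schwann cell marker scaling and to -0.12 in cKO against cHet with libraries rescaled to the same sum, beside -0.02 and 0.02; relative to it Egr2 stayed higher and Tcf7l2 lower in these comparisons. No paired analysis was possible because the labels do not say which mice formed a set and mouse numbers are not shared between groups. Over all genes the number past the threshold was 235 in cKO against control and 0 to 238 under the alternatives, and 256 in cKO against cHet and 0 to 292 under the alternatives, with 0 in both without the 3 libraries whose genotype field differs; in cHet against control it was 0 and at most 2. Of these calls 140 of 235 were higher in the cKO than in the control, but 49 of 126 under Schwann cell marker scaling; between cKO and cHet 140 of 256 were higher in the cKO, but 56 of 130 under that scaling and 90 of 292 with libraries rescaled to the same sum. The depth behind a value is unknown.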
